A study of Rattus norvegicus with 32 samples.

Results

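The rat genes Pgf and Kdr, which encode placental growth factor and a receptor for vascular endothelial growth factor (VEGF), were followed in the lung through the days after blood loss. Each was found by its symbol in the probe annotation and had 1 probe of 2 spots, so that they were 2 of the 5022 gene symbols on the arrays. Both genes were chosen on their measured values across these same groups, and their levels and differences are therefore given as a description, without a test.

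Lung RNA was measured on 2-colour spotted arrays, 1 array per lung sample, as the ratio of lung to a pool of rat organ RNA (9 organs are named, although the labels count 10). The bled groups were male Sprague-Dawley rats of 280 to 300 g from which 40% of the estimated blood volume was withdrawn through an arterial catheter, 7 to 10 days after instrumentation, with lungs taken early (1, 3 and 6 h later), at 16 h or late (24, 48 and 72 h). Sham rats were instrumented in the same way and not bled, and control rats carried no instruments; the time at which sham lungs were taken is not clear from the labels. The labels do not number the animals, and the p-values therefore speak only of the spread from sample to sample. There were 5 arrays at 6 h, 3 at each other time, 6 of sham and 3 of control. Each array held 13056 spots, of which 12151 to 12895 had a value. Sham array 2 and 16 h array 3 stood apart: the mean log2 ratio of the liver markers was 2.81 and 2.39 on them, against -1.48 to 0.06 on the remaining 30 arrays, and that of the alveolar type II cell markers was -1.29 on sham array 2 and 0.82 on 16 h array 3, against 0.88 to 2.23. All values below come from the 30 arrays unless stated, which leaves 2 arrays at 16 h and 5 of sham. A level is the log2 ratio to the organ pool minus the median of its array, averaged over the spots of the probe, so that 0 marks the median spot and levels of different probes are not compared.

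VEGF ligands are secreted proteins that act mainly on endothelium, the cell layer which lines the dense capillary bed of the lung. VEGF-A binds both Flt1 and Kdr; Kdr carries most of the signal for endothelial growth and permeability, whereas Flt1 binds the ligand tightly, signals weakly and, as a soluble form, traps it. Placental growth factor binds Flt1 but not Kdr, and is known to draw monocytes, which carry Flt1. VEGF-C and VEGF-D act through Flt4 on lymphatic endothelium, and the neuropilins Nrp1 and Nrp2 serve as co-receptors.

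The promoters are shown because both genes are known to be regulated through motifs near their starts, and the shared letters can be read directly. Each sequence covers 250 bases before and 50 bases from the annotated start, from RefSeq on the rat build GRCr8. The Pgf window lies at chr6:110557698-110557997 on the minus strand and the Kdr window at chr14:32571813-32572112 on the plus strand. Capitals mark the motif matches found on either strand:
Pgf: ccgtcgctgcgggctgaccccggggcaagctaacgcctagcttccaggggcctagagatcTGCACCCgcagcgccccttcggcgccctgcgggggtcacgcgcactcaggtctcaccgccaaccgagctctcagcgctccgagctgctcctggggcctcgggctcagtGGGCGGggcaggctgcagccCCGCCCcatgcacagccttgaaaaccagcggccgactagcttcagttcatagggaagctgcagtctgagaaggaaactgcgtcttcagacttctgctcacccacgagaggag
Kdr: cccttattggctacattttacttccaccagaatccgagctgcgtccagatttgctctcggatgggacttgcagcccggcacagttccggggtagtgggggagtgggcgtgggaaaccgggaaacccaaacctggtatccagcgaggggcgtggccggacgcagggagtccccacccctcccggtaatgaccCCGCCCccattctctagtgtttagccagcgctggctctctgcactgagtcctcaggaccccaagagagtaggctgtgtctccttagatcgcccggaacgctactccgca
Of the 5 motifs searched on both strands, none of whose matches overlapped here, the Sp1 box GGGCGG matched at 2 places in Pgf, starting at -82 and -62, and at 1 place in Kdr, starting at -59, and 33.1% of 33469 rat promoters of this length hold it. The metal response core TGCACNC, with the known form of a site for the metal-sensing factor Mtf1, matched at 1 place in Pgf, at -190 (12.2% of promoters hold it). The hypoxia response core was searched in the form ACGTG only. That form, present in 19.3% of promoters, was in neither window, nor were TGCGCNC (14.1%) or the AP-1 site TGANTCA (7.33%). The form GCGTG was not searched or marked. Its letters can be read in the Kdr window and, on the other strand, in the Pgf window. The windows were rich in G and C, at 66.7% for Pgf and 61.0% for Kdr. A match of letters is a description and not evidence of a bound site.

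Among the ligands, Pgf comes first; the level of its probe was highest from 24 h onwards. On the arrays of the baseline and of the early times its levels were as follows. The control lungs had -0.24, -0.79 and -1.02. The sham lungs had -1.19, -0.87, 0.35, -0.98 and -1.0. The single positive sham value, on sham array 4, stood clear of the other sham arrays, which lay between -1.19 and -0.87. At 1 h the levels were -0.28, 0.09 and 0.38, and at 3 h they were 1.03, 1.17 and 0.78, so that all 3 h lungs stood above all sham and control lungs. At 6 h the levels were -0.05, -0.41, 0.14, -0.29 and -0.03. At 16 h they were -1.45 and -0.89, back in the range of sham or below it.

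The late lungs held the highest Pgf levels and the widest spread. At 24 h the levels were 4.23, 0.62 and 0.75, at 48 h they were 2.12, 2.62 and 1.38, and at 72 h they were 1.26, 2.61 and 0.69. All late arrays lay above all sham and control arrays, but the range at 24 h and 72 h overlapped that at 3 h. The 24 h mean rested largely on array 1. The 2 Pgf spots followed each other closely (r = 0.973 over 30 arrays), with the widest gap, 1.17, on 24 h array 2.

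Ordered by mean level, the groups ran 48 h (2.04 ± 0.62, SD), 24 h (1.87 ± 2.05), 72 h (1.52 ± 0.99), 3 h (0.99 ± 0.20), 1 h (0.06 ± 0.34), 6 h (-0.13 ± 0.22), control (-0.68 ± 0.40), sham (-0.74 ± 0.62) and 16 h (-1.17 ± 0.39), with the numbers of arrays given above. Of the 8 neighbouring steps in this order, the step between 3 h and 1 h was the only one in which the arrays did not overlap. The gap there was 0.93, against a pooled SD of 0.28.

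Set against sham, the Pgf level differed by 0.80 ± 0.55 (SE of the fit) at 1 h, 1.73 ± 0.55 at 3 h and 0.61 ± 0.48 at 6 h. The difference was -0.43 ± 0.63 at 16 h. It was 2.61 ± 0.55 at 24 h, 2.78 ± 0.55 at 48 h and 2.26 ± 0.55 at 72 h, which are ratios of 6.08, 6.85 and 4.78. By size of the upward difference the probe ranked 17 at 24 h, 15 at 48 h and 16 at 72 h of 6112 probes, and 7 for the mean of the late times (24, 48 and 72 h) minus the mean of the early times (1, 3 and 6 h), where the difference was 1.5 ± 0.34. Without 24 h array 1 the 24 h difference was 1.42. Sham minus control was -0.06 ± 0.55.

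**Figure D1:**
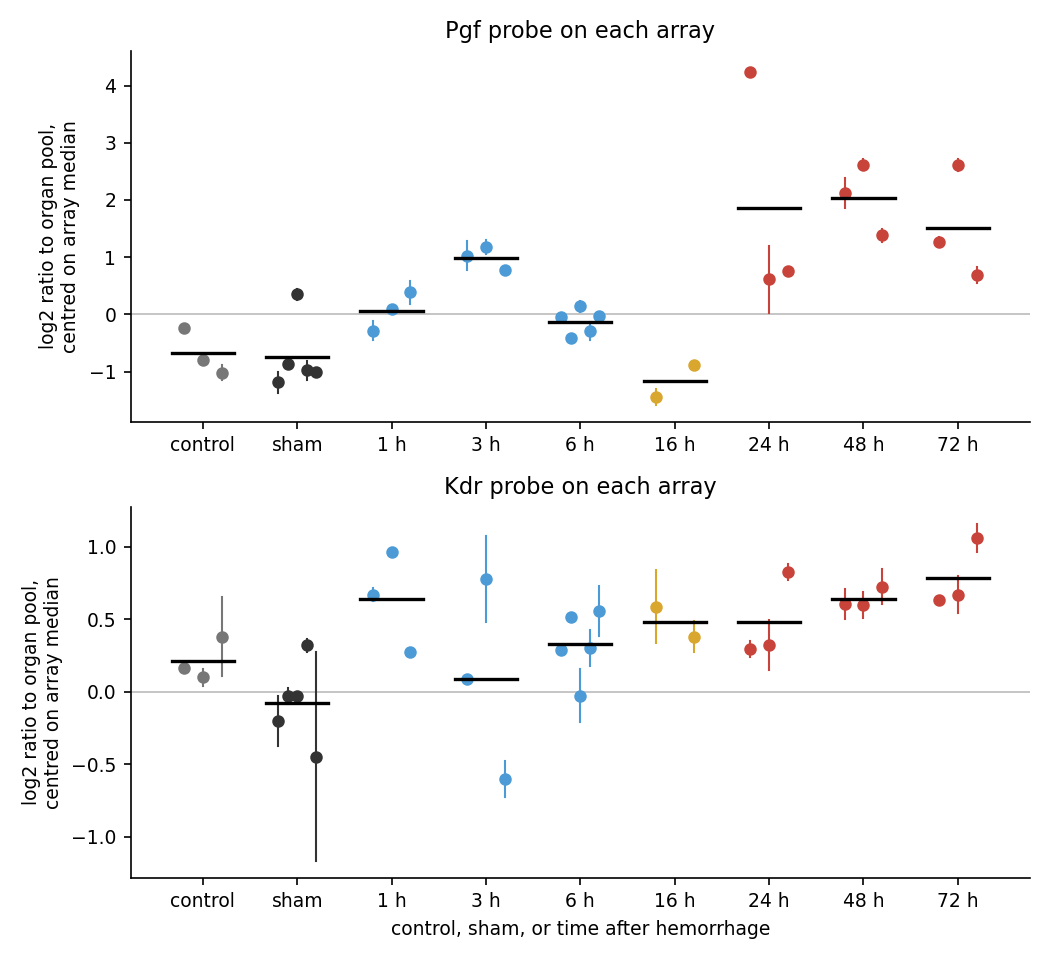
Level of the Pgf probe (top) and the Kdr probe (bottom) on each of 30 arrays, as the log2 ratio to the organ pool centred on the array median. Points are arrays, thin bars join the 2 spots of the probe and thick bars are group means. Pgf runs between -1.45 and 4.23 with its highest group means at 24, 48 and 72 h, and Kdr between -0.60 and 1.06 with its lowest group mean in sham.

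The Pgf probe lay directly after S100a9 in the deposited order of spots (S100a9 on spots 1675 and 1676, Pgf on 1677 and 1678), and the levels of the 2 probes ran together. S100a9 encodes a calcium-binding protein that is abundant in neutrophils. Across 30 arrays, which share the organ pool and the centring, the correlation of Pgf with S100a9 was r = 0.945 (rho = 0.921). It was 0.901 over 28 arrays without 24 h array 1 and 48 h array 2, and 0.939 for the deviations from group means. Cpe (carboxypeptidase E), the next probe after Pgf on spots 1679 and 1680, had r = 0.832 with Pgf. Over 4536 pairs of neighbouring probes with different symbols the median r was 0.389 and the 95th percentile 0.779. The value of S100a9 and Pgf was reached by 3 pairs (0.0661%), that pair itself included.

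On single arrays the resemblance extended to the values that stood out. S100a9 stood at 5.40 on 24 h array 1, its highest level, and at 1.78 on sham array 4, its highest in sham. On sham array 2, which was left out, S100a9 was at -3.27 and Pgf at -4.77. That Pgf value came from 1 spot with a ratio of 0.03, near the lowest that the deposited values can show. S100a9 minus sham was 1.24 ± 0.71 at 1 h, 1.94 ± 0.71 at 3 h, 0.90 ± 0.61 at 6 h, -0.19 ± 0.81 at 16 h, 2.47 ± 0.71 at 24 h, 2.35 ± 0.71 at 48 h and 1.94 ± 0.71 at 72 h. None of these passed (limma, smallest adjusted p = 0.0509, at 24 h).

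With the S100a9 level as a covariate, an alternative added after the data were seen, the Pgf difference from sham was 0.82 ± 0.25 at 24 h, 1.08 ± 0.25 at 48 h and 0.86 ± 0.24 at 72 h. It was -0.093 ± 0.22 at 1 h, 0.33 ± 0.24 at 3 h, -0.038 ± 0.19 at 6 h and -0.29 ± 0.24 at 16 h, so that the sign turned at 1 h and 6 h. These differences and SEs came from an ordinary least squares fit of the Pgf probe alone and not from the limma fit. Within groups Pgf moved by 0.72 ± 0.06 (SE) for each unit of S100a9, and the residual SD of Pgf was 0.28 with this term and 0.81 without it. The part that the neighbouring spots, or neutrophils in the lung, had in the Pgf levels was not tested.

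**Figure D2:**
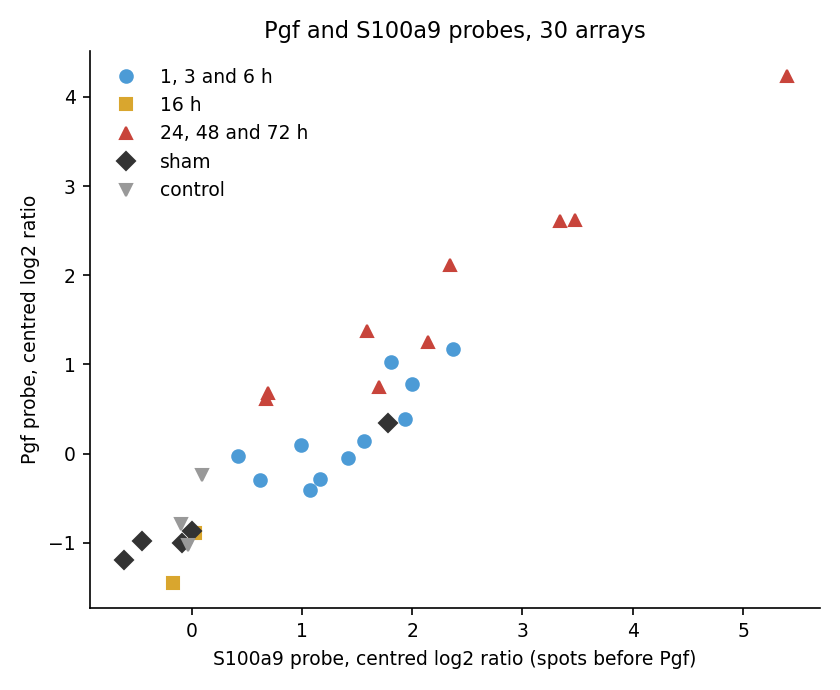
Level of the Pgf probe against that of the S100a9 probe, whose spots directly precede those of Pgf, on 30 arrays (centred log2 ratios, 1 point per array, shape and colour by group). The points rise along 1 line (r = 0.945), with 24 h array 1 at the top right at 5.40 for S100a9 and 4.23 for Pgf.

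Other genes of neutrophils followed Pgf less closely or not at all. S100a8, whose protein pairs with that of S100a9, lay elsewhere in the spot order. It had r = 0.401 (rho = 0.055) with Pgf and r = 0.419 with S100a9. The probe after S100a8, which has no single symbol, had r = 0.882 with it. Mmp8, the neutrophil collagenase, had r = 0.738 with Pgf (rho = 0.794) and r = 0.738 with S100a9. With Pgf, Lcn2 (lipocalin) had r = 0.438 (rho = 0.192) and Cxcr2, a chemokine receptor of neutrophils, r = 0.338 (rho = 0.44). Mmp9 (gelatinase B) had r = -0.145 (rho = -0.248) and Np4, a defensin, r = -0.32 (rho = -0.366). Of 14 listed neutrophil markers 7 were measured, S100a9 and Mmp8 among them. Their mean level was 0.015 to 0.396 at 1 h, 0.354 to 0.819 at 3 h and -0.002 to 0.36 at 6 h, against -0.20 to 0.27 in sham. The 3 h arrays thus stood above all sham arrays. The mean level was -0.18 and 0.02 at 16 h, 0.03 to 1.88 at 24 h, 0.44 to 0.83 at 48 h and 0.31 to 1.07 at 72 h. Gene by gene the shift was uneven, as the median difference from sham over the 7 was -0.11 at 16 h, 0.69 at 24 h, 0.13 at 48 h and 0.07 at 72 h, with 3, 5, 4 and 4 of the 7 above 0. At 1, 3 and 6 h that median was 0.275, 0.364 and 0.447, with 5, 5 and 4 of the 7 above 0. Mmp8 rose at 72 h (4.37 ± 0.70, limma adjusted p = 0.00167, 5.87% of all probes called). Its difference at 3 h, 2.47 ± 0.70, did not pass (limma adjusted p = 0.051). Cxcr2 rose at 3 h (1.71 ± 0.47, limma adjusted p = 0.0475, 2.98% called). No other member of that list passed against sham at a single time. In whole lung, fewer cells of a type and less RNA per cell cannot be told apart.

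The probes most like Pgf over the 30 arrays were S100a9, Cpe, Add3 (r = 0.749), Scn9a (0.746) and Mmp8, out of 5132 probes with 1 symbol and values on at least 25 shared arrays. Add3 encodes an adducin of the membrane skeleton and Scn9a a sodium channel. Apart from S100a9 and Cpe, these probes were no neighbours of Pgf in the spot order.

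The receptor Kdr varied over a smaller range. Its levels were 0.16, 0.10 and 0.38 in control lungs and -0.20, -0.03, -0.03, 0.32 and -0.45 in sham lungs. They were 0.67, 0.96 and 0.28 at 1 h, 0.09, 0.77 and -0.60 at 3 h, and 0.29, 0.51, -0.03, 0.30 and 0.55 at 6 h. The 3 h lungs spanned nearly the whole range of the probe. At 16 h the levels were 0.59 and 0.38, at 24 h 0.29, 0.32 and 0.83, at 48 h 0.60, 0.60 and 0.72, and at 72 h 0.63, 0.67 and 1.06. All lungs of 48 h and 72 h stood above all sham and control lungs, those of 16 h stood above sham and touched control, and those of 1, 6 and 24 h overlapped sham.

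The order of mean Kdr levels was 72 h (0.79 ± 0.24, SD), 48 h (0.64 ± 0.07), 1 h (0.64 ± 0.34), 16 h (0.48 ± 0.15), 24 h (0.48 ± 0.30), 6 h (0.33 ± 0.23), control (0.21 ± 0.15), 3 h (0.09 ± 0.69) and sham (-0.08 ± 0.28). Each neighbouring pair in this order overlapped. Against sham the Kdr level differed by 0.72 ± 0.24 (SE) at 1 h, 0.17 ± 0.24 at 3 h, 0.40 ± 0.21 at 6 h, 0.56 ± 0.28 at 16 h, 0.56 ± 0.24 at 24 h, 0.72 ± 0.24 at 48 h and 0.86 ± 0.24 at 72 h. The last is a ratio of 1.82. The mean over the 7 times was 0.57 ± 0.17 above sham, the late minus early difference was 0.29 ± 0.15, and sham minus control was -0.29 ± 0.24. As sham lay below control, the bled groups stood closer to control than to sham. The lowest sham level, on array 6, averaged a first spot at -1.17 and a second at 0.27, so the low sham mean rested partly on 1 spot. Without sham array 6, sham minus control was -0.20 and the mean over the 7 times was 0.48 above sham.

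Kdr was measured less evenly than Pgf, since its 2 spots correlated at r = 0.677, with a gap of 1.44 on sham array 6. The 3 h difference depended on the spot: it was 0.48 on the first spot and -0.15 on the second. Its neighbours in the spot order were Kcnb2 before it (r = 0.431 with Kdr) and Napa after it (r = -0.104). The probes most like Kdr were Ppy (r = 0.728), Ube3a (0.718), Vom2r40 (0.711), Zfp329 (0.707) and Plscr1 (0.691), over 29 or 30 arrays. Ppy encodes pancreatic polypeptide, Ube3a a ubiquitin ligase and Plscr1 a phospholipid scramblase.

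Kdr is a gene of endothelium, and it was set beside 9 measured endothelial markers of 26 listed. Their mean level was 0.24 to 0.34 at 24 h, 0.12 to 0.29 at 48 h and -0.15 to 0.39 at 72 h, against 0.46 to 0.79 in sham. Of the 9 markers 3 lay above sham at 24 h, 3 at 48 h and 2 at 72 h, and 1, 0 and 1 passed, each of them lower. Over all probes 3.52% were called at 24 h, 1.18% at 48 h and 5.87% at 72 h. Of these called probes 162, 54 and 234 were lower and 53, 18 and 125 higher. Markers of alveolar epithelial cells also had lower group means in the late lungs than in sham. The type I mean was 1.677 in sham and 1.284 in control. It was 1.285 at 24 h, 1.211 at 48 h and 0.901 at 72 h, so at 24 h it was not below control. The type II mean, 1.65 in control, was 1.453, 0.986 and 1.033 at these times. The mean of 7 type II markers was 1.24 to 1.88 at 24 h, 0.88 to 1.09 at 48 h and 0.92 to 1.24 at 72 h, against 1.45 to 2.23 in sham. The median difference of these 7 was -0.87 at 48 h, where Sftpb (surfactant protein B) fell, and -0.76 at 72 h, where Sftpb and Sftpc (surfactant protein C) fell. The 5 measured type I markers had a median difference of -0.84 at 72 h, where Akap5 alone passed, lower. The correlation with Kdr over the 30 arrays was negative for 7 of the 9, among them Plvap, of the fenestrated capillary wall (r = -0.536), Ace, the angiotensin-converting enzyme of lung capillaries (-0.476), and Thbd, thrombomodulin (-0.463). It was 0.293 for Sele (E-selectin) and 0.134 for Erg, an endothelial transcription factor. Plvap fell at 24 h (-1.21 ± 0.32, adjusted p = 0.0387, 3.52% of all probes called) and Car4, the carbonic anhydrase of alveolar capillaries, fell at 72 h (-2.14 ± 0.60, adjusted p = 0.035). Edn1 (endothelin) fell in the late against the early lungs (-0.71 ± 0.19, adjusted p = 0.0241, 7.12% called). Car4 at 72 h ranged between -4.31 and -0.27 with a median of -0.36, against -0.14 to 1.67 in sham. All 72 h arrays lay below sham, but the size of the difference rested largely on 1 array. That value also lowers the 72 h mean of the 9 markers. In the spot order Plvap had r = 0.829 with Btc, the probe after it, and Car4 had r = 0.817 with Fmo5, the probe before it. On the other side Plvap had r = 0.359 with Bace1 and Car4 r = 0.088 with Ucn2. The parts of endothelial content in the Kdr levels, and of these neighbours in the Plvap and Car4 differences, were not tested.

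**Figure D3:**
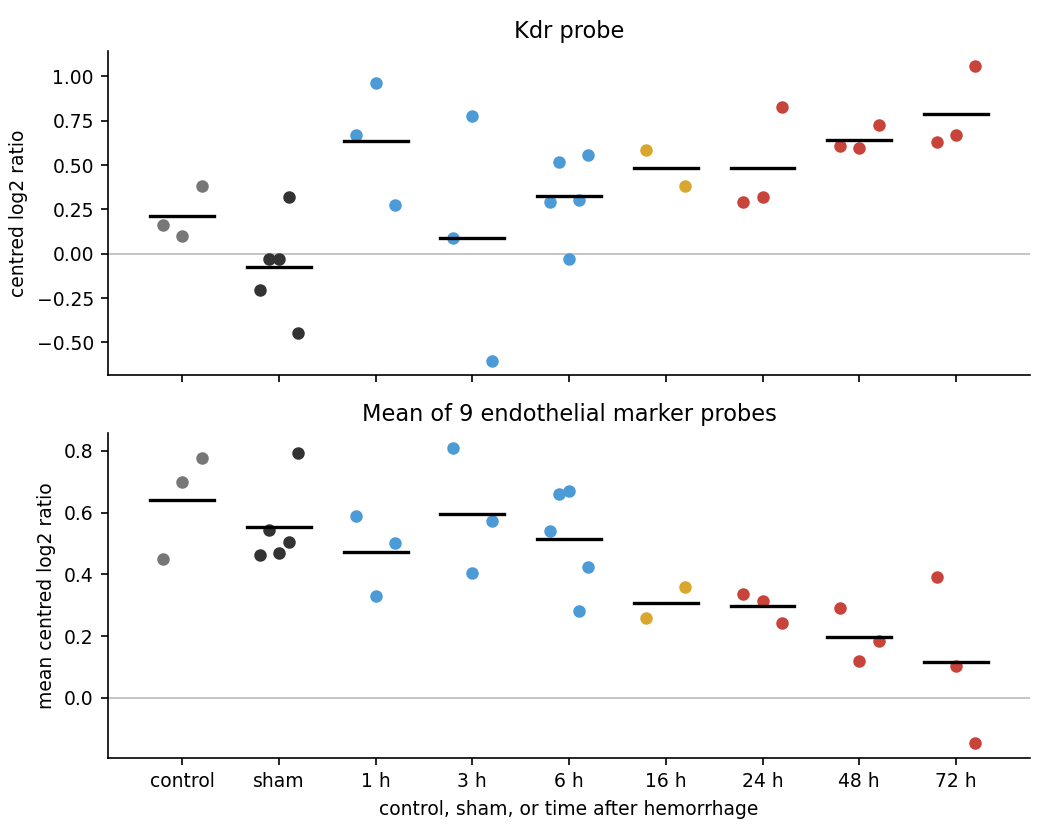
Level of the Kdr probe (top) and mean level of 9 endothelial marker probes (bottom) on each of 30 arrays, as centred log2 ratios; bars are group means. The marker mean is 0.12 at 72 h and 0.20 at 48 h, against 0.55 in sham, while the Kdr mean is 0.79 and 0.64 there, against -0.08 in sham. The 72 h marker mean includes 1 Car4 value at -4.31.

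Pgf and Kdr had r = 0.286 with each other over the 30 arrays (rho = 0.355). Pgf was high at 3 h and low at 16 h, whereas Kdr had its second lowest mean at 3 h and stood above sham at 16 h. The correlation of Vegfa, the main ligand of Kdr, was -0.523 with Pgf and -0.289 with Kdr, and that of Flt1, the receptor of placental growth factor, was -0.286 with Pgf.

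The other ligands were tested in the fit across all probes. Vegfa, whose product drives capillary growth and leak, stood below sham at every time, with mean levels of 0.48 ± 0.23 (SD) at 1 h, 0.15 ± 0.60 at 3 h, 0.54 ± 0.43 at 6 h, 0.81 ± 0.25 at 16 h, 0.33 ± 0.69 at 24 h, 0.61 ± 0.18 at 48 h and 0.33 ± 0.60 at 72 h, against 1.19 ± 0.40 in sham and 1.20 ± 0.45 in control. The largest difference was -1.04 ± 0.33 at 3 h (adjusted p = 0.0748), the mean over the 7 times was -0.73 ± 0.23 (adjusted p = 0.0675), and none passed. The 3 h lungs, at -0.52, 0.36 and 0.62, overlapped sham only at its lowest value, 0.56. Vegfc differed from sham by 0.44 ± 0.24 at 3 h and -0.68 ± 0.28 at 16 h, and Vegfd by -0.48 ± 0.32 at 3 h and 0.64 ± 0.32 at 72 h. None of these passed against sham either (smallest adjusted p = 0.239). Vegfb was not analysed here.

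Of the receptors, Flt4 and Nrp2 fell at 3 h and no receptor passed against sham at another time. Flt4, the receptor of VEGF-C and VEGF-D, stood at -0.75, -0.79 and -0.82 at 3 h, against 0.30, 0.22, 0.01, 0.25 and 0.80 in sham. The groups did not overlap, and the difference was -1.11 ± 0.20 (limma, adjusted p = 0.0108, 2.98% of all probes called at 3 h). Nrp2, a co-receptor for VEGF-C, stood at -0.49, -0.50 and -0.45 at 3 h, against 0.64, 0.70, -0.32, 0.86 and 0.82 in sham, a difference of -1.02 ± 0.28 (adjusted p = 0.0477). The Nrp2 groups did not overlap, with sham array 4 nearest to the bled lungs. Flt4 was back at 0.32 ± 0.24 (SD) at 6 h, against 0.32 ± 0.29 in sham, and Nrp2 at 0.67 ± 0.31, against 0.54 ± 0.49. Flt4 was higher in late than in early lungs by 0.44 ± 0.13 (adjusted p = 0.0341). Left out in turn, each of the 8 arrays of 3 h and sham left the Flt4 difference called, while Nrp2 lost its call in 6 of 8 omissions, with an adjusted p of 0.115 without 3 h array 2. With all 32 arrays neither passed at 3 h (adjusted p = 0.0986 for Flt4 and 0.162 for Nrp2). In the spot order the probe after Flt4 is Samsn1 (r = 0.729 with Flt4) and the probe before it Fmo4 (r = 0.529). The probe after Nrp2 is Gja5 (r = 0.78 with Nrp2) and the probe before it Bhlhe41 (r = -0.249). The part of these neighbours in the differences was not tested.

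Flt1 and Nrp1 did not pass at any time. Flt1, which binds both placental growth factor and VEGF-A, differed from sham by 0.31 ± 0.19 at 6 h and -0.34 ± 0.22 at 72 h, its widest differences (smallest adjusted p = 0.378 against sham). Nrp1, the co-receptor for VEGF-A, differed by -1.01 ± 0.42 at 1 h (adjusted p = 0.417) and spread widely in control, between -0.78 and 1.32.

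**Figure D4:**
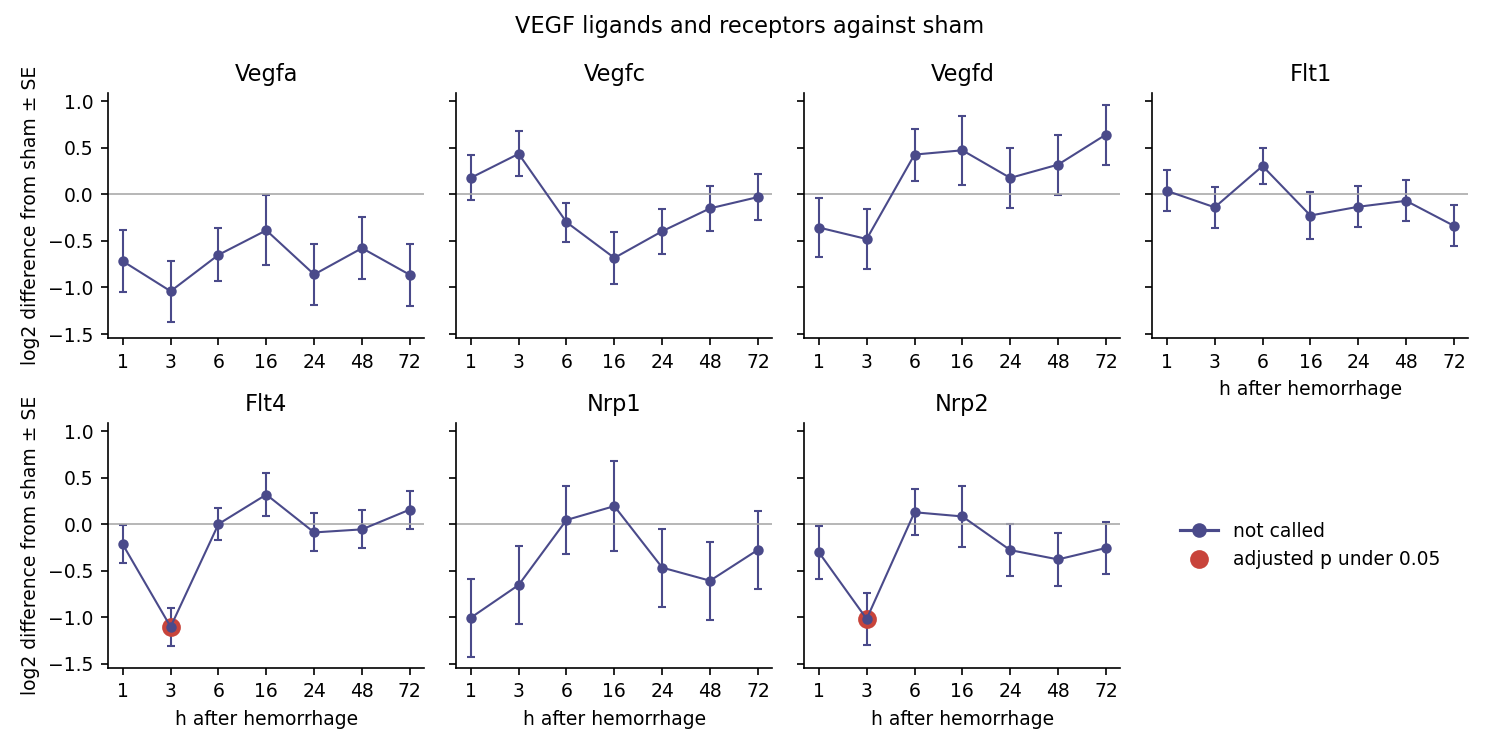
Difference from sham of the measured VEGF ligands and receptors other than Pgf and Kdr at each time after hemorrhage (log2, bars are SEs of the fit, 30 arrays). Red marks the differences with an adjusted p under 0.05, which are Flt4 at -1.11 and Nrp2 at -1.02, both at 3 h; Vegfa lies below 0 at all 7 times without passing.

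Beyond ligands and receptors, the listed genes of the VEGF system were enzymes of receptor signalling, regulators of hypoxia and other angiogenic factors; with ligands and receptors 77 of 126 listed genes were measured and tested. At 3 h 4 of the 77 (5.19%) fell and none rose, beside 2.98% of all probes called, of which 69 rose and 113 fell. Besides Flt4 and Nrp2 these were Map2k1, a kinase of the MAP kinase cascade (-1.10 ± 0.30, adjusted p = 0.0421), and Ptgs2, cyclooxygenase-2 (-1.09 ± 0.30, adjusted p = 0.0472). Ptgs2 stood at 0.04 to 0.62 at 3 h, against 0.87 to 1.83 in sham. Map2k1 ran between -1.71 and -0.15 at 3 h, against 0.01 to 0.75 in sham, so its groups did not overlap although its bled lungs spread widely. Map2k1 and Ptgs2 each lost the call in 6 of 8 omissions of an array. Without 3 h array 3 Map2k1 stood at -0.63 against sham (adjusted p = 0.139), and without 3 h array 2 Ptgs2 stood at -0.97 (adjusted p = 0.146). The median difference of the 77 was -0.25 at 3 h, beside 0.01 over all probes. Without adjustment the share at 3 h was below that of all probes. A limma p under 0.05 was reached by 14 of the 77 (18.2%, beside 22.3%).

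At 24 h 3 of the 77 (3.9%) fell, where 3.52% of all probes were called, so the share was near that of all probes. Unadjusted, 11 of the 77 (14.3%) had a limma p under 0.05, beside 20% of all probes. Prkcb, a protein kinase C isoform, stood at -1.65 to -1.52, against -0.77 to -0.30 in sham (difference -0.98 ± 0.21, adjusted p = 0.0103). Ptgs2 fell by 1.22 ± 0.30 (adjusted p = 0.0253). Ppp3cb, a catalytic subunit of calcineurin, fell by 1.65 ± 0.45 (adjusted p = 0.0418), with levels between -3.13 and -1.08. Ptgs2 directly follows Jun in the spot order, and the 2 probes had r = 0.885. With Hes3, the probe after it, Ptgs2 had r = 0.544. The part of the neighbouring spots in the Ptgs2 differences was not tested. Without 24 h array 3 none of the 3 calls held: Prkcb stood at -0.99 (adjusted p = 0.0558), Ptgs2 at -1.07 (0.161) and Ppp3cb at -1.04 (0.311).

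At 72 h 2 of the 77 (2.6%) fell, beside 5.87% of all probes called. Unadjusted, 25 of the 77 (32.5%) had a limma p under 0.05, beside 22.3% of all probes. Hras, a small GTPase downstream of receptor kinases, stood at -0.94 to -0.57, against 0.10 to 0.66 in sham (difference -1.11 ± 0.30, adjusted p = 0.0314). Acvrl1, the endothelial receptor ALK1, stood at -0.39 to 0.30, against 0.41 to 0.94 in sham (-0.72 ± 0.22, adjusted p = 0.0484). Acvrl1 lost its call in 6 of 8 omissions of an array and Hras in 5.

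Between late and early lungs 4 of the 77 passed (5.19%, beside 7.12% of all probes). Unadjusted, 25 of the 77 (32.5%) had a limma p under 0.05, beside 24.6% of all probes. Flt4 and Map2k1 (0.61, adjusted p = 0.0451) were higher in the late lungs. Map2k2 (-0.55, adjusted p = 0.0143) and Ppp3cb (-0.99, adjusted p = 0.0329) were lower there. Map2k2 kept its call in each of 20 omissions of an array and in all 8 alternatives run on it.

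In the remaining comparisons limma called none of the 77. Over all probes it called 0% at 1 h, 0% at 6 h, 0.0654% at 16 h, 1.18% at 48 h, 3.4% for the mean of the 7 times and 0% for sham minus control. An unadjusted p under 0.05 was reached at 1 h by 7 of the 77 (9.09%, beside 10.9% of all probes) and at 6 h by 11 (14.3%, beside 18.8%). It was reached by 16 at 16 h (20.8%, beside 13.9%) and by 16 at 48 h (20.8%, beside 16.3%). For the mean of the 7 times 15 reached it (19.5%, beside 23%), and for sham minus control 3 (3.9%, beside 4.76%). The smallest p at 1 h belonged to Pdgfa (-0.82 ± 0.26, adjusted p = 0.281), a platelet-derived growth factor chain, and Ppp3ca (0.84 ± 0.27). At 6 h it belonged to Fgf2, a fibroblast growth factor (1.01 ± 0.27, adjusted p = 0.0716), and Prkcb (-0.64 ± 0.18). At 16 h it belonged to Hif3a, a hypoxia-inducible factor subunit (0.76 ± 0.23, adjusted p = 0.167), and Ptpn6 (-1.09 ± 0.38). At 48 h it belonged to the kinases Src (-1.04 ± 0.28, adjusted p = 0.0635) and Ptk2b (-0.70 ± 0.21), of which Ptk2b had a second probe at 0.16. For the mean of the 7 times Prkcb (-0.49 ± 0.14, adjusted p = 0.0507) and Ptgs2 (-0.71 ± 0.21, adjusted p = 0.053) came nearest. For sham minus control they were Arnt2 (0.74 ± 0.27) and Src (0.73 ± 0.28).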

How the data were processed

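Each of 32 rat lung RNA samples was measured on a 2-colour spotted array against pooled organ RNA. The deposited values are log2 ratios of lung to pool per spot; which dye each sample carried, the scanner software and how the authors normalized the arrays were not given in the labels read here. The direction was read from the type II pneumocyte markers, which stood above the liver markers on 30 of 32 arrays.

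Ratios were centred on each array's median (-0.38 to 0.06 as deposited) and averaged over a probe's spots, giving 6344 probes, 5143 of them with 1 symbol. Sham array 2 and 16 h array 3 were left out. Differences in the main setting came from 1 limma fit (limma 3.58.1, R 4.3.3; lmFit and eBayes, two-sided) over 9 groups and 30 arrays, on the 6112 probes that each group measured on 2 or more arrays. P-values were adjusted by Benjamini-Hochberg over all of them within each of 10 comparisons, with 0.05 as the threshold for a call. The calculation was tested on simulated data.

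The members and the gene lists were chosen with earlier results of these data known. Named were the members, the measured ligands and receptors, called genes of the other VEGF lists (where none, the 2 with the smallest p), the 5 probes most correlated with each member, and called markers; neighbouring spots were added after their values were seen. Where a gene had several probes, the one with most values was taken. Alternatives were all 32 arrays, no centring, quantile normalization, either spot alone, a floor at a ratio of 0.05, no filter, a replicate block and leaving out each array. For Pgf alone, the S100a9 level was also added as a covariate, by ordinary least squares.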

Additional observations from a re-analysis of the deposited data

Results flagged for a closer look

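Pgf on sham array 4, at 0.35, and Nrp2 on the same array, at -0.32, were the values farthest from their group among 18 gene and group combinations set against Dixon's bound (ratios of 0.793 and 0.811, bound 0.71). Chance flags about 1 in 20 such groups. S100a9 stood at 1.78 on that array, above the other sham arrays.

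Both Pgf levels at 16 h lay below the sham mean and all those of 1, 3, 6, 24, 48 and 72 h above it. The sham mean, -0.74, includes sham array 4 at 0.35. The other sham arrays, at -1.19 to -0.87, lay below that mean as well. The left-out 16 h array 3, at -0.60, lay above it. The 16 h level minus that of 1, 3 and 6 h was -1.23, -2.16 and -1.04, and the level of 24, 48 and 72 h minus that of 16 h was 3.04, 3.21 and 2.69. These differences were not tested, and 16 h rests on 2 arrays.

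Late minus early differences passed for Flt4 (0.44), Map2k1 (0.61), Map2k2 (-0.55) and Ppp3cb (-0.99), with limma adjusted p-values of 0.0341, 0.0451, 0.0143 and 0.0329. Map2k1 lost its call in 14 of 20 omissions of an array, and Flt4 and Ppp3cb in 7 each.

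Kdr on 16 h array 3, one of the arrays left out for liver signal, stood at 0.80, above the highest control array (0.38). Among the arrays used, 16 h array 1, at 0.59, and all those of 48 h and 72 h also lay above that control array.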

How the results depend on the processing

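The number of arrays limits every value here, and ratios near the floor are coarse. Quantile normalization, no centring, the floor and the absence of a filter moved no Pgf or Kdr difference by more than the spread between replicates. Under quantile normalization 19 of the 20 differences kept their sign. With all 32 arrays, of which sham array 2 had the lowest Pgf level, Pgf minus sham was 1.48 at 1 h, 1.28 at 6 h and 0.43 at 16 h, and sham minus control was -0.73. Kdr at 3 h was 0.48 on the first spot and -0.15 on the second, and at 16 h 0.92 and 0.20. With S100a9 as a covariate, chosen after seeing the data, Pgf minus sham was -0.093, 0.33, -0.038, -0.29, 0.82, 1.08 and 0.86 at the 7 times and 0.38 for their mean. Only 4 of 10 Pgf differences then stayed within the spread between replicates, and 8 of 10 kept their sign. The cause of these shifts was not tested.

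Counts of VEGF system genes called moved by more than 1.5 times in places. The share of all probes called was not counted under these settings, with the replicate block or with an array left out. A moved count is therefore not read as a result about these genes. With all 32 arrays they were 0 at 3 h, 2 at 16 h, 0 at 72 h, 3 for the mean and 1 for late minus early. Under quantile normalization they were 2 at 3 h, 2 at 48 h, 6 at 72 h and 4 for the mean. Without centring they were 6 at 24 h and 5 for the mean. The first spot gave 1 at 24 h and 1 for the mean, the second spot 1 for the mean, and the floor 2 for the mean.

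Replicate numbers did not pair the arrays: 94 same-number pairs had a median r of -0.01 (lowest -0.38, highest 0.32), and 6 of 30 arrays correlated best with their own number. With the replicate number as a block the counts were 1 at 3 h, 0 at 72 h and 1 for late minus early, and the differences of Pgf and Kdr kept their sign.

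Leaving out each array in turn, Pgf minus sham ranged over 0.64 to 1.07 at 1 h, 1.62 to 2.00 at 3 h, 0.50 to 0.88 at 6 h, -0.71 to -0.16 at 16 h, 1.42 to 3.23 at 24 h, 2.49 to 3.11 at 48 h and 1.71 to 2.67 at 72 h. Its mean ran between 1.31 and 1.75, late minus early between 1.10 and 1.71 and sham minus control between -0.33 and 0.17. Kdr minus sham ranged over 0.55 to 0.89, -0.18 to 0.51, 0.31 to 0.50, 0.46 to 0.67, 0.39 to 0.66, 0.63 to 0.82 and 0.73 to 0.96 at the same times. It turned negative at 3 h without 3 h array 2. Its mean ran between 0.48 and 0.67, late minus early between 0.17 and 0.40 and sham minus control between -0.39 and -0.20. The counts ranged over 1 to 7 at 3 h (7 without sham array 4), 0 to 1 at 6 h, 0 to 3 at 24 h (0 without 24 h array 3), 0 to 1 at 48 h, 0 to 4 at 72 h, 0 to 5 for the mean and 1 to 7 for late minus early, and stayed at 0 at 1 h, 16 h and for sham minus control.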

Other observations

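The 2 arrays with liver signal differed from the others in the receptor of placental growth factor as well. Flt1 stood at 2.39 on 16 h array 3 and at 2.21 on sham array 2, against -0.53 to 0.72 on the 30 other arrays. Flt4, the receptor of VEGF-C and VEGF-D, stood at -0.35 and -0.86 on the same arrays, against -0.82 to 0.82. Vegfa stood at -0.62 and 0.25, against -0.52 to 1.71.

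Some other neighbours in the spot order also ran together. Scgb1a1, the secretory protein of club cells, had r = 0.888 over the 30 arrays with Clu, the probe after it, and Sftpd, surfactant protein D, had r = 0.87 with Hsd3b7, the probe after it. With the probe before it, Scgb1a1 had r = 0.672 (Aldh6a1) and Sftpd r = 0.01 (Alox15). These pairs share array, organ pool and centring, and whether neighbouring numbers are neighbouring places on the slide was not tested.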
